A study of Mus musculus with 40 samples.

Results

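Gene expression in the amygdala of germ-free (GF) mice, raised without any microbes, was compared between animals that were naïve and animals that had gone through a social interaction test 1 hr before (GF-SI). Of the 40 RNA libraries of the series 16 belong to this comparison, chosen by the group in their column names: 4 naïve GF libraries, GF-P1 to GF-P4 here, and 12 GF-SI libraries, GF-S1 to GF-S12. All GF and GF-SI mice were male Swiss Webster, an outbred stock, aged 10 weeks, and were housed in gnotobiotic isolators. They carried no engineered allele and received no drug. GF-SI mice were habituated to a test room and a 3-chamber arena and then met an unfamiliar, conventionally raised male mouse in one side chamber and an object in the other. For naïve mice no habituation or handling is described. The methods give neither the time of day of dissection nor batches of library preparation. Novelty, handling, social contact, any exposure of GF-SI mice to microbes during the test, time of day and batch therefore cannot be told apart. A naïve library pooled left amygdala RNA of a pair of animals by the methods, or of 2 to 3 by the labels, and a note to the study's quality table lists GF-P2 as one animal. Each GF-SI library came from 1 animal, so single animals are set against pools throughout. Conventionally raised mice (CON, 4 naïve and 8 CON-SI libraries) of the same strain, sex and age served for a comparison of responses and share no library with GF mice.

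The amygdala is a group of nuclei that assigns emotional value to stimuli, a conspecific among them. Within minutes of synaptic activity, calcium and the ERK kinase cascade switch on immediate early genes, transcription factors that need no new protein for their own induction. A later set of effectors such as growth factors, scaffolds and enzymes follows within the hour, together with phosphatases and inhibitors that shut the cascade off again. Cells that load their endoplasmic reticulum with new secretory protein can also turn on its chaperones, the unfolded protein response.

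Library totals were 10153860 to 15320023 counts in GF and 7291810 to 19961958 in GF-SI, and 15443 genes passed the filter on low counts. Levels are given as CPM, a gene's count relative to the library's total after TMM scaling, and fold changes on the log2 scale as GF-SI over GF. A gene was called at an adjusted p under 0.1 from edgeR's quasi-likelihood test. Defining markers of neurons, astrocytes, microglia and oligodendrocytes and of amygdala nuclei were detected in all 16 libraries, and their lists had medians between −0.08 and 0.03. Among libraries apart from the rest was GF-P1, where 11 markers of the neighbouring striatum summed to 422 CPM against 162 to 244 CPM in GF-SI libraries. Another was GF-S8, where 9 markers of choroid plexus and ependyma summed to 1880 CPM. These summed to 121 to 175 CPM in naïve libraries and had a median of 206 CPM in GF-SI. GF-S12 was also high in the choroid plexus gene Ttr, as given below. In GF-S2 markers of oligodendrocytes summed to 6239 CPM against a GF-SI median of 2234 CPM. Calls with and without GF-P1 and GF-S8 are given below. As RNA was taken from whole tissue, fewer cells of a type and less RNA per cell cannot be told apart.

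After social interaction 2121 of 15443 genes, 13.7% of those tested, were called in GF mice. Of these, 1216 (7.87%) were higher and 905 (5.86%) lower in GF-SI. A change of over 0.5 on the log2 scale was found for 617 genes (4% of those tested), 266 up and 351 down, and a change of over 1 for 34 up and 52 down. The median change of all genes was −0.01, that of genes called up 0.35 and that of genes called down −0.43. In 291 genes (1.88%) all 12 GF-SI libraries lay above all 4 naïve ones, and in 193 genes (1.25%) all lay below. Of the called genes 285 and 188 had groups apart in this way. The number of calls depended on the naïve libraries: it was 1630 without GF-P1, 901 without GF-P2, 680 without GF-P3 and 2161 without GF-P4. Among them were 1437, 886, 671 and 1757 of the 2121 genes. Without GF-P1 and GF-S8 together it was 1303, with 1193 of the 2121 genes.

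The gene with the smallest p was Nr4a3, an orphan nuclear receptor and immediate early gene on the plus strand of chromosome 4, from 48045153 to 48086447 (GRCm38, annotated by GENCODE vM21). It was measured at 19.5, 27.4, 24.5 and 33.5 CPM in the 4 naïve libraries and 66.1 to 89.6 CPM (median 79.1) in GF-SI mice. On the log2 scale the change was 1.59 with an SE of 0.12 (edgeR, adjusted p = 8.25e-07). All 12 values lay above those of the naïve libraries. Fosb, an AP-1 transcription factor whose long-lived product marks repeatedly activated neurons, lies on the minus strand of chromosome 7, from 19302696 to 19310051. It was measured at 10.5, 11.8, 10.4 and 11.8 CPM in the 4 naïve libraries and 20.6 to 49.1 CPM (median 29.5) in GF-SI mice. The groups did not overlap, and on the log2 scale the change was 1.53 with an SE of 0.20 (edgeR, adjusted p = 0.000301). Fosl2, another AP-1 subunit, was measured at 27.4, 31.8, 26.5 and 30.0 CPM in the 4 naïve libraries and 58 to 100.2 CPM (median 71.5) in GF-SI mice, again without overlap (log2 fold change 1.35, adjusted p = 1.54e-05 by edgeR). Egr1, a zinc finger factor used as a marker of active neurons, was measured at 47.7, 65.3, 82.4 and 96.6 CPM in the 4 naïve libraries and 106 to 266 CPM (median 139) in GF-SI mice, above the naïve range in all GF-SI mice (log2 fold change 1.17, adjusted p = 0.00626 by edgeR).

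**Figure D1:**
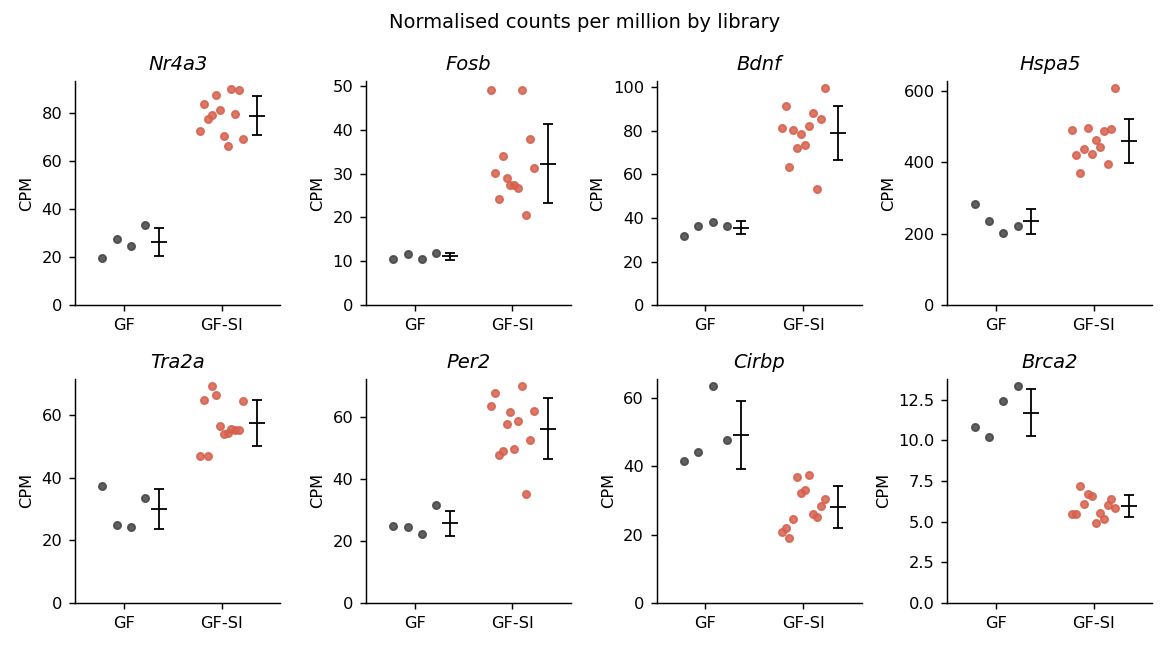
Normalised counts (CPM, vertical axes, linear from 0) of 8 genes in the 4 naïve GF and 12 GF-SI libraries (horizontal axes). Each point is a library, and the bar beside each group gives its mean and SD. For each of the 8 genes the 2 groups do not overlap, Cirbp and Brca2 lying lower and the other 6 higher in GF-SI.

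Of 29 measured immediate early transcription factors, 12 rose and 1 fell, with a median log2 change of 0.50 next to −0.01 over all genes. Over all genes 7.87% rose and 5.86% fell. Beside the 4 genes above, Atf3 (1.75), Egr2 (1.12), Egr4 (0.83), Klf4 (0.63), Jun (0.54), Klf10 (0.50), Crem (0.50) and Arid5a (0.47) rose, all with overlap between the groups. Btg2, an antiproliferative immediate early gene, fell, measured at 13.5, 25.3, 28.2 and 25.1 CPM in the 4 naïve libraries and 9.36 to 18 CPM (median 14.9) in GF-SI mice (log2 fold change −0.66, adjusted p = 0.0248 by edgeR). These 9 genes each lost the call without at least 1 naïve library, with an adjusted p of 0.1 to 0.26 in the alternatives where they did not pass, whereas Nr4a3, Fosb, Fosl2 and Egr1 kept it in all alternatives. Without GF-P1 the list had 6 rises and 2 falls, without GF-P2 6 and 1, and without GF-P3 7 and 0. The classical activity marker Fos did not pass. It was measured at 5.2, 20.2, 32.3 and 24.5 CPM in the 4 naïve libraries and 21.8 to 50.1 CPM (median 30.0) in GF-SI mice, with a log2 change of 0.58 with an SE of 0.29 (edgeR, adjusted p = 0.225). GF-P1 held the lowest naïve value, GF-P2 also lay below the GF-SI range, and GF-P3 and GF-P4 lay inside it. Egr3 stood at 0.54 (adjusted p = 0.249), Ier5 at 0.65 (adjusted p = 0.249) and Junb at 0.28 (adjusted p = 0.499), and Npas4, a factor induced by calcium influx, at −0.35 (adjusted p = 0.403).

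Among the effectors that such factors and calcium induce, 16 of 30 rose and 0 fell, with a median of 0.46. Over all genes 7.87% rose. Bdnf, a neurotrophin that strengthens synapses, was measured at 31.6, 36.2, 38.2 and 36.5 CPM in the 4 naïve libraries and 53.4 to 99.4 CPM (median 80.7) in GF-SI mice. On the log2 scale the change was 1.15 with an SE of 0.13 (edgeR, adjusted p = 3.59e-05), and the groups did not overlap. Homer1, whose short form loosens the scaffold of the postsynaptic density, was measured at 333, 275, 329 and 319.7 CPM in the 4 naïve libraries and 415 to 988 CPM (median 614) in GF-SI mice (log2 fold change 0.99, adjusted p = 0.00312 by edgeR), also without overlap. Counts per gene do not separate its short from its long form. Inhba, a subunit of activin, showed the largest rise of the list, measured at 7.09, 1.5, 3.71 and 3.62 CPM in the 4 naïve libraries and 6 to 28.4 CPM (median 14) in GF-SI mice (log2 fold change 1.91, adjusted p = 0.00599 by edgeR). The groups overlapped at the lowest GF-SI value, which lay below GF-P1. Baz1a, a chromatin remodelling subunit, was measured at 4.73, 3.52, 3.61 and 4.62 CPM in the 4 naïve libraries and 5.17 to 17.6 CPM (median 11.8) in GF-SI mice (log2 fold change 1.48, adjusted p = 0.00289 by edgeR), and Sik1, a kinase that restrains CREB-dependent transcription, at 15.3, 13.7, 10.5 and 18.7 CPM in the 4 naïve libraries and 20.1 to 37.7 CPM (median 24.1) in GF-SI mice (log2 fold change 0.80, adjusted p = 0.00532 by edgeR), both with all GF-SI mice above all naïve pools. Cdkn1a, a cell cycle inhibitor, rose by 1.28, and Pcsk1, a prohormone convertase, by 0.58. Arc, which organises receptor uptake at active synapses, was measured at 36.6, 93.8, 130.1 and 149 CPM in the 4 naïve libraries and 94.2 to 609.8 CPM (median 180.1) in GF-SI mice. Its call was marginal (log2 fold change 1.24, adjusted p = 0.0957 by edgeR) and was lost in 11 of 22 alternatives, with 0.96 and an adjusted p of 0.236 by edgeR without GF-P1. Of the effectors 9 kept the call in all alternatives, and 13, 9 and 12 passed without GF-P1, GF-P2 and GF-P3.

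The enzymes and adaptors that switch ERK signalling off again rose in part. Of 16 measured, 8 rose and 1 fell (median 0.41), where 7.87% of all genes rose and 5.86% fell. Dusp4, a nuclear phosphatase of ERK, was measured at 8.99, 12.7, 8.69 and 13.4 CPM in the 4 naïve libraries and 13.6 to 32.6 CPM (median 23.6) in GF-SI mice (log2 fold change 1.12, adjusted p = 0.00145 by edgeR), without overlap. Spry2, a Sprouty inhibitor of receptor tyrosine kinase signalling, was measured at 18.9, 19.9, 12.9 and 19.5 CPM in the 4 naïve libraries and 22 to 38.3 CPM (median 27.4) in GF-SI mice (log2 fold change 0.69, adjusted p = 0.014 by edgeR), likewise without overlap, and Spred2, a related inhibitor of RAF activation, rose by 0.68. These 3 kept the call in all alternatives. Dusp6, Dusp14, Spry4, Spred1 and Errfi1 rose by 0.39 to 0.65, and Spry1 fell by 0.43 on the log2 scale, which did not pass with the correction for GC content and length (−0.31, adjusted p = 0.152 by edgeR). Each of these 6 lost the call without 1 or more naïve libraries (adjusted p of 0.101 to 0.292 where they did not pass), and 5, 4 and 3 members rose without GF-P1, GF-P2 and GF-P3. The kinases of the MAPK cascades themselves showed 3 rises and 3 falls among 40 (median 0.00), near the 13.7% called over all genes, and 0 rises and 2 falls without GF-P2 and 2 and 1 without GF-P3. In cAMP signalling, where 3 of 21 rose and 2 fell (median 0.02) and 2 rose and 0 fell without GF-P1, GF-P2 or GF-P3, Creb1, the transcription factor that the cascade phosphorylates, was measured at 86.6, 91.7, 76.9 and 89.9 CPM in the 4 naïve libraries and 104 to 130.2 CPM (median 118) in GF-SI mice (log2 fold change 0.44, adjusted p = 0.00145 by edgeR), without overlap.

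Many chaperones of the endoplasmic reticulum rose, and 16 of 18 calls in their list held in all alternatives. Of 31 measured genes of the unfolded protein response, 18 rose, 0 fell and 13 were not called, with a median of 0.33. Over all genes 7.87% rose. A positive log2 change was found for 24 of the 31. In 14 of them all GF-SI mice lay above all naïve pools (1.88% of all genes did). Hspa5, which encodes BiP, the main chaperone and stress sensor of this compartment, was measured at 284, 235, 202 and 222 CPM in the 4 naïve libraries and 369.6 to 607 CPM (median 453) in GF-SI mice. On the log2 scale the change was 0.97 with an SE of 0.11 (edgeR, adjusted p = 8.35e-05). Hsp90b1, an HSP90 of the same compartment, was measured at 469.6, 388, 355 and 448 CPM in the 4 naïve libraries and 530.3 to 760.1 CPM (median 620.1) in GF-SI mice (log2 fold change 0.62, adjusted p = 0.00122 by edgeR), and Pdia4, a disulphide isomerase, at 57.6, 52.7, 50.8 and 52.5 CPM in the 4 naïve libraries and 72.8 to 110.0 CPM (median 85.8) in GF-SI mice (log2 fold change 0.74, adjusted p = 0.00028 by edgeR), both without overlap. Other rises without overlap were those of the lectin chaperones Calr (0.44) and Canx (0.29), of the co-chaperones Dnajb11 (0.64) and Dnajc3 (0.45), of the secreted factors Manf (0.60) and Creld2 (0.79), of the nucleotide exchange factor Hyou1 (0.33), of the kinase Eif2ak3 (0.28), which is PERK, and of the transcription factor Ddit3 (0.62), which is CHOP. Xbp1, the transcription factor that is spliced in this response, rose by 0.40, which did not pass without GF-P3 (0.36, adjusted p = 0.111 by edgeR). Without GF-P1, GF-P2 and GF-P3, 18, 17 and 16 members rose, and 19 did with a correction for GC content and length. P4ha1, a collagen prolyl hydroxylase of the same compartment that was on no list, was among the 10 genes with the smallest p, at 47, 45.3, 47 and 51.4 CPM in the 4 naïve libraries and 74 to 118 CPM (median 95.6) in GF-SI mice (log2 fold change 0.98, adjusted p = 3.59e-05 by edgeR).

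Promoters of such genes are known for the endoplasmic reticulum stress element (ERSE), which is CCAAT and CCACG with 9 bases of any kind between them, and which ATF6 and XBP1 are known to bind together with NF-Y. The 250 bases before each RefSeq transcription start (GRCm38.p6) were searched on both strands for exact matches, for the 11262 of the tested genes that the table held. An ERSE stood before 18 of these genes (0.16%), 8 of which rose (Hspa5, Pdia6, Hsp90b1, Dnajc3, Creld2, Calr, Canx and Hnrnpa3), while 1 fell (Pan2, named after its match was seen, like Hnrnpa3). Of 16 genes of the unfolded protein response that rose and had a promoter in the table, 7 held it (43.8%), and of all 27 measured genes of this list with a promoter 9 did (33.3%), the other two being Syvn1 and Derl3, which were not called. The 7 promoters are shown to let the element be read in its context, written 5′ to 3′ on the strand of the gene, with the ERSE in capitals.
Hspa5 (chr2:34771840-34772089, plus strand): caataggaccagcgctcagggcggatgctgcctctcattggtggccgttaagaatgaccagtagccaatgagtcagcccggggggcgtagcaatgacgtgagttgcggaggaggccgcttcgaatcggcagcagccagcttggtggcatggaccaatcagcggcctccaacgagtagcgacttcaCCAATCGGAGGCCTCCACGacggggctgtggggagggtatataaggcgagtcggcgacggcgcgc
Hsp90b1 (chr10:86705445-86705694, minus strand): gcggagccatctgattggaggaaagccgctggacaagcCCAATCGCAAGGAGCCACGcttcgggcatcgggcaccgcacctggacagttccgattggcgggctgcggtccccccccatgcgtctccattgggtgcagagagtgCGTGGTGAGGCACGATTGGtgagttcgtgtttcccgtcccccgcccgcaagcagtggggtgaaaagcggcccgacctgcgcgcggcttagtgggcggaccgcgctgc
Pdia6 (chr12:17266339-17266588, plus strand): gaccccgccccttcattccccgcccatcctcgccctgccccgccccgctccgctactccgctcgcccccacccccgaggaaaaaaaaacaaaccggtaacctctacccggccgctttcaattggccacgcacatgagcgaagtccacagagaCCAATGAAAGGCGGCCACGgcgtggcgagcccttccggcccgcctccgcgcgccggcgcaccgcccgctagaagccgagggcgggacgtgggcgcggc
Calr (chr8:84846932-84847181, minus strand): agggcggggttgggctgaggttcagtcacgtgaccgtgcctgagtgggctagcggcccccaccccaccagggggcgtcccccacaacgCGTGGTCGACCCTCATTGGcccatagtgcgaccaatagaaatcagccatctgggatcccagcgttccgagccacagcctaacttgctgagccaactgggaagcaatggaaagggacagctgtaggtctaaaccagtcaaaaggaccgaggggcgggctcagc
Canx (chr11:50325674-50325923, minus strand): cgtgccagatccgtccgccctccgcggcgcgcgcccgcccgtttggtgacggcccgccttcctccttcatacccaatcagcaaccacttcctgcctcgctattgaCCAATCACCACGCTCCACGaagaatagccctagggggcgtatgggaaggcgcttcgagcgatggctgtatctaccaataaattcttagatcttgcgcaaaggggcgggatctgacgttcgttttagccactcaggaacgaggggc
Dnajc3 (chr14:118937682-118937931, plus strand): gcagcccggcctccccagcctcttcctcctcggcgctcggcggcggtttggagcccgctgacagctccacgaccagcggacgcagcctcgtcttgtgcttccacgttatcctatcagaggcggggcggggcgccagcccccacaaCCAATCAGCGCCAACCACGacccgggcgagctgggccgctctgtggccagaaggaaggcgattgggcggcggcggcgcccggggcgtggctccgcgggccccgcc
Creld2 (chr15:88819396-88819645, plus strand): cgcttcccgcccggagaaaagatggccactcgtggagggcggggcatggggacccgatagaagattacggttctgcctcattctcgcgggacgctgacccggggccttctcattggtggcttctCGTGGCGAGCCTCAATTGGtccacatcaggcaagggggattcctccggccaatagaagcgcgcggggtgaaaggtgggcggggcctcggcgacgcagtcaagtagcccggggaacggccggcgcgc
The match began 65 bases before the start in Hspa5, 98 in Pdia6, 105 in Dnajc3, 126 in Creld2, 145 in Canx and 162 in Calr, and Hsp90b1 held a pair at 212 and 107. This motif was added to the search after the data were seen, and a match is a description of the sequence alone.

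The other motifs searched were the cAMP response element TGACGTCA, the AP-1 site TGACTCA and the E-box CACGTG. The cAMP response element stood before 43 of 937 genes that rose (4.59%), 16 of 649 that fell (2.47%) and 343 of 11262 tested (3.05%). The AP-1 site stood before 2.99% of genes that rose, 4.31% of those that fell and 3.85% of those tested, and the E-box before 11.7%, 9.86% and 9.65%. Of the immediate early transcription factors that rose, 9 had a promoter in the table, 0 with a cAMP response element or an AP-1 site and 2 with an E-box (Egr2 and Klf4). Among the 15 genes with a cAMP response element that rose without overlap were Dio2 and Tra2a, described below, whose promoters follow with the element in capitals.
Dio2 (chr12:90739039-90739288, minus strand): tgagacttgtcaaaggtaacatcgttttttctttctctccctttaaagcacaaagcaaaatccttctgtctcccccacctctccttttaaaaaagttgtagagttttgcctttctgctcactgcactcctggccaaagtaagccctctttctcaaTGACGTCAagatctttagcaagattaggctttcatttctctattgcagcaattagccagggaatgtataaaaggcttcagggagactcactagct
Tra2a (chr6:49264053-49264302, minus strand): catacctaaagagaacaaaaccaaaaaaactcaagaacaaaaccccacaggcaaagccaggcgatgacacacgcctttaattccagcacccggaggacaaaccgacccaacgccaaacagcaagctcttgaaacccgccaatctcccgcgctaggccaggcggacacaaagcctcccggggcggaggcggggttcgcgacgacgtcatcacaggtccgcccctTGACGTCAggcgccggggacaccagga

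Of 36 chaperones of the cytosol and mitochondria 27 rose and 0 fell, with a median of 0.43, and in 10 the groups lay apart. Over all genes 7.87% rose, and in 1.88% all GF-SI mice lay above all naïve libraries. Hsph1, an HSP110 that recharges HSP70, was measured at 333, 294, 284 and 336 CPM in the 4 naïve libraries and 440.5 to 605 CPM (median 547) in GF-SI mice (log2 fold change 0.80, adjusted p = 2.32e-05 by edgeR), and Chordc1, a co-chaperone of HSP90, at 63.8, 56.5, 49.2 and 58.8 CPM in the 4 naïve libraries and 87.3 to 127 CPM (median 108) in GF-SI mice (log2 fold change 0.89, adjusted p = 2.21e-05 by edgeR). In both the groups did not overlap. The constitutive HSP70 gene Hspa8 was measured at 1222, 1223, 1364 and 1150 CPM in the 4 naïve libraries and 1500 to 1906 CPM (median 1706) in GF-SI mice (log2 fold change 0.47, adjusted p = 0.000581 by edgeR). The inducible HSP70 gene Hspa1a was measured at 3.24, 2.4, 2.34 and 3.06 CPM in the 4 naïve libraries and 4.27 to 11.5 CPM (median 6.05) in GF-SI mice (log2 fold change 1.23, adjusted p = 0.00894 by edgeR), and its reads may be shared with the near-identical Hspa1b. Dnajb5 (0.91), Stip1 (0.46), Ahsa1 (0.41) and Hspa4 (0.40) rose without overlap, and Dnajb1 (0.71), Dnaja1 (0.56), Hspd1 (0.50) and Hsp90aa1 (0.39) with overlap. Of the 27 genes 16 kept the call in all alternatives, and the 11 others, among them 4 subunits of the CCT folding complex, lost it without at least 1 naïve library (adjusted p of 0.105 to 0.338 where they did not pass). The list then had 23 rises without GF-P1, 19 without GF-P2 and 16 without GF-P3. Dnajb6, a chaperone that binds aggregation-prone proteins, stood at 0.26 and was not called (adjusted p = 0.189 by edgeR).

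**Figure D2:**
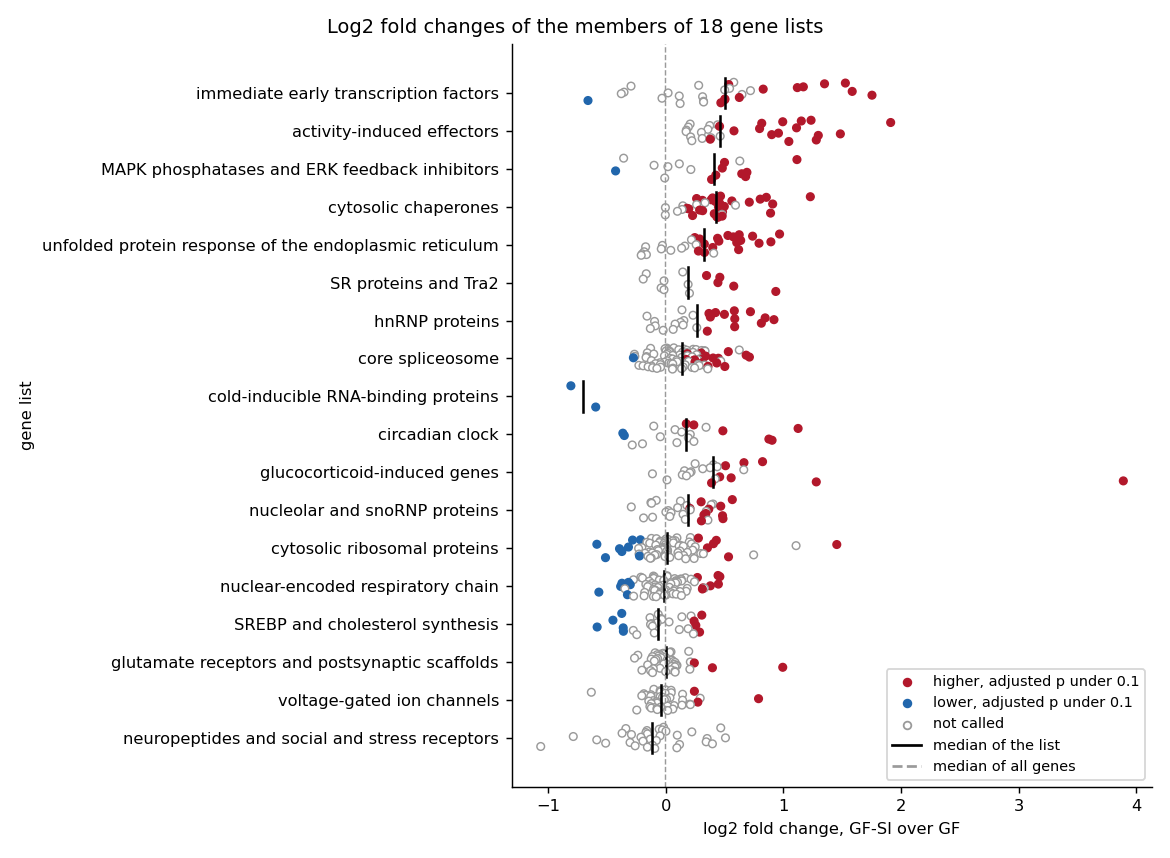
Log2 fold change of GF-SI over GF (horizontal axis) for each measured member of 18 gene lists (vertical axis). Filled red points were called higher and filled blue points lower at an adjusted p under 0.1, open points were not called, black bars are list medians and the dashed line is the median of all genes (−0.01). Chaperone and activity-induced lists lie to the right of the line, and synaptic, channel and neuropeptide lists are centred near it.

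Genes for RNA splicing rose in part and in smaller steps. SR proteins bind exons and recruit the spliceosome. Of these and the related Tra2 genes, 5 of 13 rose and 0 fell (median 0.19), where 7.87% of all genes rose. Tra2a, a splicing activator, was measured at 37.4, 24.8, 24.3 and 33.4 CPM in the 4 naïve libraries and 46.9 to 69.3 CPM (median 55.4) in GF-SI mice (log2 fold change 0.94, adjusted p = 0.000299 by edgeR). Srsf10, an SR protein that represses splicing when dephosphorylated after heat shock, was measured at 56.2, 49.2, 44 and 57.7 CPM in the 4 naïve libraries and 63 to 91.1 CPM (median 77.2) in GF-SI mice (log2 fold change 0.58, adjusted p = 0.00103 by edgeR). Neither overlapped between groups, nor did Srsf7 (0.44). Srsf3 (0.35) and Srsf4 (0.46) rose with overlap, and Srsf4 did not pass without GF-P2 (adjusted p = 0.235) or GF-P3 (adjusted p = 0.239), both by edgeR. Of 9 kinases that phosphorylate SR proteins Srpk1 rose (0.30), which did not pass without GF-P2 (0.27) or GF-P3 (0.26). Among the hnRNP proteins, which coat nascent transcripts, 12 of 25 rose and 0 fell (median 0.26). Hnrnpc, which binds uridine tracts, was measured at 127, 123, 112 and 124 CPM in the 4 naïve libraries and 153 to 194 CPM (median 176) in GF-SI mice (log2 fold change 0.50, adjusted p = 0.000581 by edgeR), without overlap, and was the only one of the 12 that kept the call in all alternatives. The list had 8 rises without GF-P1, 2 without GF-P2 and 1 without GF-P3. Hnrnpa2b1 rose by 0.72, measured at 142, 129, 114 and 192 CPM in the 4 naïve libraries and 135 to 329 CPM (median 228) in GF-SI mice, and stood at 0.67 (adjusted p = 0.128) without GF-P2 and at 0.62 (adjusted p = 0.16) without GF-P3, by edgeR.

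In the core spliceosome 18 of 91 genes rose and 1 fell, with a median of 0.14, where 7.87% of all genes rose and 5.86% fell. Prpf3 (0.68) and Snrnp48 (0.53), proteins of the tri-snRNP and of the minor spliceosome, rose, as did Prpf18 (0.34, groups apart) and the cap-binding protein Ncbp1 (0.36), while Prpf40b, a U1-associated factor, fell, measured at 35.3, 36.5, 38.8 and 34.3 CPM in the 4 naïve libraries and 26.8 to 33.7 CPM (median 30.3) in GF-SI mice (log2 fold change −0.28, adjusted p = 0.0141 by edgeR). Without GF-P1, GF-P2 and GF-P3 the rises numbered 17, 7 and 5, and after correcting for GC content and length 29. The FET and paraspeckle genes had 2 rises of 11 (median 0.22), Sfpq (0.62, groups apart) and Taf15 (0.78), the second of which did not pass without GF-P2 (0.68) or GF-P3 (0.68). Of 40 other regulators of splicing 7 rose (median 0.09), among them Luc7l (0.34, groups apart), and 3 rose without GF-P2 and 4 without GF-P3. The exon junction complex and nonsense-mediated decay had 5 rises of 14 (median 0.21), with Rbm8a at 0.71 and Upf2 at 0.56, which kept the call in all alternatives, and 3 rises without GF-P2 and 3 without GF-P3. Mettl16, an RNA methyltransferase that acts on U6 snRNA and on the transcript of a methionine adenosyltransferase, was among the 10 smallest p, at 41.8, 39.6, 35.9 and 38.3 CPM in the 4 naïve libraries and 53.5 to 64 CPM (median 59.5) in GF-SI mice (log2 fold change 0.61, adjusted p = 1.6e-05 by edgeR).

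The 2 RNA-binding proteins that mild cold induces went the other way. Cirbp, which binds stress-related and clock transcripts, was measured at 41.4, 44, 63.3 and 47.7 CPM in the 4 naïve libraries and 18.9 to 37.3 CPM (median 27.2) in GF-SI mice. On the log2 scale the change was −0.81 with an SE of 0.15 (edgeR, adjusted p = 0.00468), and the groups did not overlap. Rbm3, its relative on the X chromosome, was measured at 37.8, 47.8, 75.4 and 66 CPM in the 4 naïve libraries and 22.6 to 59.6 CPM (median 35.5) in GF-SI mice (log2 fold change −0.60, adjusted p = 0.0815 by edgeR), with overlap, and lost the call in 9 of 22 alternatives (−0.43 and an adjusted p of 0.342 by edgeR without GF-P3).

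Clock genes were split. Per2, a repressor of the circadian loop that CREB and glucocorticoids also induce, was measured at 24.7, 24.5, 22.2 and 31.5 CPM in the 4 naïve libraries and 35 to 70.0 CPM (median 58.2) in GF-SI mice (log2 fold change 1.13, adjusted p = 0.000299 by edgeR). Nfil3, a repressor of clock output, was measured at 5.2, 5.32, 5.47 and 5.87 CPM in the 4 naïve libraries and 7.59 to 14.4 CPM (median 9.4) in GF-SI mice (log2 fold change 0.88, adjusted p = 0.00263 by edgeR), and Bhlhe40, which represses the CLOCK-ARNTL dimer, at 38.2, 39.4, 36.4 and 60.2 CPM in the 4 naïve libraries and 62.4 to 127 CPM (median 72.8) in GF-SI mice (log2 fold change 0.90, adjusted p = 0.0101 by edgeR). In these 3 the groups did not overlap and the call held in all alternatives. Cry1 (0.49), Arntl (0.24) and Clock (0.17) rose and Nr1d1 (−0.36) and Dbp (−0.35) fell, but each of these 5 lost the call without at least 1 naïve library (adjusted p of 0.1 to 0.405 where they did not pass). In all, 6 of 19 rose and 2 fell (median 0.17), where 7.87% of all genes rose and 5.86% fell. The time of day of dissection is not given for either group, and its part in these changes was not tested.

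Among genes that glucocorticoids induce, 8 of 22 rose and 0 fell (median 0.40), where 7.87% of all genes rose. Fkbp5, a co-chaperone that lowers the sensitivity of the glucocorticoid receptor, was measured at 18, 16.7, 18.4 and 22.5 CPM in the 4 naïve libraries and 19.1 to 49.4 CPM (median 32.5) in GF-SI mice (log2 fold change 0.82, adjusted p = 0.0261 by edgeR), and the naïve library GF-P4 reached into the GF-SI range. It did not pass without GF-P2 (0.77, adjusted p = 0.101 by edgeR). Tsc22d3, an anti-inflammatory target of the same receptor, was measured at 57.2, 52.6, 63.2 and 89.5 CPM in the 4 naïve libraries and 69.8 to 134 CPM (median 106) in GF-SI mice (log2 fold change 0.66, adjusted p = 0.0141 by edgeR), and Gjb6, a connexin of astrocytes, rose by 0.56 without overlap. These 2 and Cdkn1a kept the call in all alternatives, whereas Zbtb16 (0.51), Mertk (0.46), Errfi1, Fkbp5 and Lcn2 did not. Lcn2, an iron carrier of inflamed tissue, stood at 0 to 0.135 CPM in naïve and 0.05 to 5.44 CPM in GF-SI libraries, with a median of 0.465 CPM, so that its log2 change of 3.89 rests on few counts.

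Of the 11 genes of thyroid hormone transport and action 2 rose and 0 fell, where 7.87% of all genes rose. Dio2, the deiodinase of astrocytes that makes T3, was measured at 106, 69.1, 72.3 and 105 CPM in the 4 naïve libraries and 130.4 to 426 CPM (median 216) in GF-SI mice (log2 fold change 1.36, adjusted p = 0.00242 by edgeR). Slco1c1, a transporter of T4 at the blood-brain barrier, was measured at 58.8, 52.8, 72 and 57.9 CPM in the 4 naïve libraries and 84.5 to 124 CPM (median 104) in GF-SI mice (log2 fold change 0.79, adjusted p = 0.000454 by edgeR). The groups did not overlap in either gene, and both kept the call in all alternatives. The median of the list was 0.15.

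Regulators of chromatin and transcription gave 16 rises and 1 fall among 48 genes (median 0.14), where 7.87% of all genes rose and 5.86% fell. Of these 17 calls 5 held in all alternatives, and 5 rises and 0 falls were left without GF-P2 and likewise without GF-P3. Kdm6b, a demethylase of histone H3 that signals induce, was measured at 12.4, 9.97, 9.57 and 12.5 CPM in the 4 naïve libraries and 15.9 to 31.3 CPM (median 20.1) in GF-SI mice (log2 fold change 0.93, adjusted p = 0.0018 by edgeR), and Tet3, an enzyme that oxidises methylated cytosine, at 59.9, 46.6, 50.3 and 55 CPM in the 4 naïve libraries and 60.4 to 116 CPM (median 83.3) in GF-SI mice (log2 fold change 0.67, adjusted p = 0.0177 by edgeR). Kdm7a, another histone demethylase that was on no list, had one of the 5 smallest p, at 96.9, 93.5, 83.4 and 91.8 CPM in the 4 naïve libraries and 137 to 192 CPM (median 162) in GF-SI mice (log2 fold change 0.82, adjusted p = 1.54e-05 by edgeR). Banp, a protein that binds unmethylated CGCG sites in promoters, had the second smallest, at 15.2, 15.7, 15.9 and 13.1 CPM in the 4 naïve libraries and 26.3 to 37.6 CPM (median 32.1) in GF-SI mice (log2 fold change 1.11, adjusted p = 9.42e-06 by edgeR). In these 4 genes the groups did not overlap. Dnmt3a, which methylates DNA de novo, rose by 0.38, but not without GF-P2 (0.32) or GF-P3 (0.30). Rybp, a subunit of Polycomb complexes that was on no list, rose by 0.51 without overlap.

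In nuclear transport 9 of 37 rose and 1 fell (median 0.08), with Ranbp2 (0.31), Nup153 (0.34), Nup50 (0.31) and the export receptor Xpo1 (0.32) keeping the call in all alternatives. Without GF-P2 and GF-P3 this list had 6 and 4 rises, and the other 6 of its 10 calls were lost in some alternative. Of nucleolar and snoRNP proteins 10 of 31 rose (median 0.18), such as Nolc1 (0.47) and Dkc1 (0.30), the pseudouridine synthase of this complex, and 6 rose without GF-P2 and 5 without GF-P3. Translation factors had 10 rises and 1 fall among 45 (median 0.13), with 2 and 1 without GF-P2 and 1 and 0 without GF-P3. Proteasome subunits had 5 rises and 1 fall among 34 (median 0.06) and ubiquitin genes and E2 enzymes 3 and 1 among 21 (median 0.00), where 7.87% of all genes rose and 5.86% fell. Both lists had 1 rise and 0 falls without GF-P2 and 0 calls without GF-P3, and 0 of their calls held in all alternatives. Cytosolic ribosomal proteins had 6 rises and 8 falls among 77 (median 0.01), Rps27 falling by 0.51 and Rpl11 rising by 0.43, and after correcting for GC content and length 14 rises and 3 falls. Without GF-P2 and GF-P3 this list had 0 rises, with 2 falls and 1 fall. Subunits of the respiratory chain had 7 rises and 6 falls among 75 (median −0.02), again near the share over all genes. They had 0 rises and 3 falls without GF-P2, 0 calls without GF-P3 and 11 rises and 3 falls after the GC and length correction, and 0 of the 13 calls held in all alternatives. In cholesterol synthesis and its control by SREBP, 4 of 26 rose and 5 fell (median −0.07), with 1 and 2 without GF-P2 and 0 and 3 without GF-P3. Lss, the cyclase that makes lanosterol, fell by 0.45 on the log2 scale, with all GF-SI mice below all naïve libraries.

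Of 45 glutamate receptors and scaffolds 3 rose and 0 fell (median 0.00), of 45 voltage-gated channels 3 and 0 (median −0.04), and of 22 genes for GABA receptors, synthesis and transport 0 and 1 (median −0.12), all below the 13.7% called over all genes. Of 33 neuropeptides and social and stress receptors 0 were called by edgeR and 0 by DESeq2 (median −0.11), 2 having an unadjusted p under 0.05, and 1 was called after correcting for GC content and length. Of 29 collagens and other matrix genes 0 were called by edgeR, with 4 at an unadjusted p under 0.05, and 2 by DESeq2. Of 19 replication-dependent histones 0 were called by edgeR, with 4 at an unadjusted p under 0.05, and 1 by DESeq2. Of all 15443 genes tested by edgeR, 3711 had an unadjusted p under 0.05. Of 15 interferon-stimulated genes 2 rose (median 0.06), neither of which kept the call in all alternatives.

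Several of the falls with the smallest p were of genes on no list. Brca2, a DNA repair protein, lies on the plus strand of chromosome 5, from 150522630 to 150570329 and was measured at 10.8, 10.2, 12.4 and 13.4 CPM in the 4 naïve libraries and 4.89 to 7.2 CPM (median 5.91) in GF-SI mice. On the log2 scale the change was −0.98 with an SE of 0.10 (edgeR, adjusted p = 2.5e-05). Fbxl4, a protein of the mitochondrial outer membrane that limits mitophagy, was measured at 14.1, 14.5, 19.3 and 13.5 CPM in the 4 naïve libraries and 7.76 to 10.4 CPM (median 9.48) in GF-SI mice (log2 fold change −0.71, adjusted p = 0.000264 by edgeR). Sh2d3c, a signalling adaptor, fell by 0.91 and Pias3, an E3 ligase for SUMO and inhibitor of STAT3, by 0.72. Slc6a6, the taurine transporter, was measured at 157, 139, 161 and 161 CPM in the 4 naïve libraries and 90.5 to 127 CPM (median 101) in GF-SI mice (log2 fold change −0.58, adjusted p = 0.000584 by edgeR), and Slc9a8, a sodium-proton exchanger, fell by 0.49. Atad5 (−0.71), which unloads PCNA from DNA, Klhdc9 (−1.30), the zinc finger genes Zfp512b (−0.40) and Zfp687 (−0.60), the kinase gene Map3k21 (−1.15) and Dcx (−0.49), a microtubule protein of young neurons, also fell. In all of these genes every GF-SI mouse lay below every naïve pool, and each kept the call in all alternatives. Mid1, a ubiquitin ligase, was called at −1.50, but its naïve values were 10.7, 15.1, 2.34 and 1.94 CPM, so that GF-P3 and GF-P4 lay within the GF-SI range of 1.9 to 3.82 CPM. It did not pass without GF-P2 (−0.92, adjusted p = 0.169 by edgeR).

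Other rises with groups apart and a call in all alternatives were those of Ccdc6 (0.61), Gpt2 (0.61), a mitochondrial transaminase, Ipmk (0.52), an inositol polyphosphate kinase, Zswim6 (0.68) and Slc5a3 (0.69), the carrier of the osmolyte myo-inositol. Gm22009, annotated as a small Cajal body RNA, was measured at 30.3, 15.3, 25.8 and 31.4 CPM in the 4 naïve libraries and 49.4 to 107 CPM (median 66.7) in GF-SI mice (log2 fold change 1.50, adjusted p = 0.000659 by edgeR). The 2 largest log2 changes of all were those of Mir6236 (4.67) and Gm23935 (4.05), which are annotated as microRNA genes. Which transcripts their reads came from was not tested. They came with naïve values of 0.075 to 1.15 CPM and 0 to 3.58 CPM and GF-SI values of 0.075 to 103 CPM and 0.225 to 204 CPM. They overlapped between groups, and without GF-P1 they stood at 5.62 (adjusted p = 0.126) and 4.88 (adjusted p = 0.134) by edgeR.

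The direction of the calls went with the kind of gene. Protein-coding genes had 1185 rises and 776 falls among 13793, a median of 0.00. Counted per gene, long noncoding classes moved down: lincRNAs had 1 rise and 26 falls among 274 (median −0.17), antisense RNAs 1 and 24 among 257 (−0.20), processed transcripts 1 and 19 among 186 (−0.17) and RNAs from bidirectional promoters 0 and 8 among 39 (−0.30). Over all genes 7.87% rose and 5.86% fell. The summed share of counts in lincRNAs was not lower in GF-SI, with a median of 0.981% against 0.889% in GF libraries. Together the 756 genes of these 4 classes had 3 rises and 77 falls, and after correcting for GC content and length 6 and 59 (median −0.13), without GF-P2 2 and 37, and without GF-P3 2 and 25. Mir9-3hg, the host transcript of a microRNA of neural progenitors, was measured at 16.4, 14.7, 22.2 and 19.5 CPM in the 4 naïve libraries and 8.52 to 13.7 CPM (median 10.7) in GF-SI mice (log2 fold change −0.76, adjusted p = 0.00119 by edgeR), without overlap. Processed pseudogenes had 10 rises and 28 falls among 225 and may share reads with their parent genes.

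**Figure D3:**
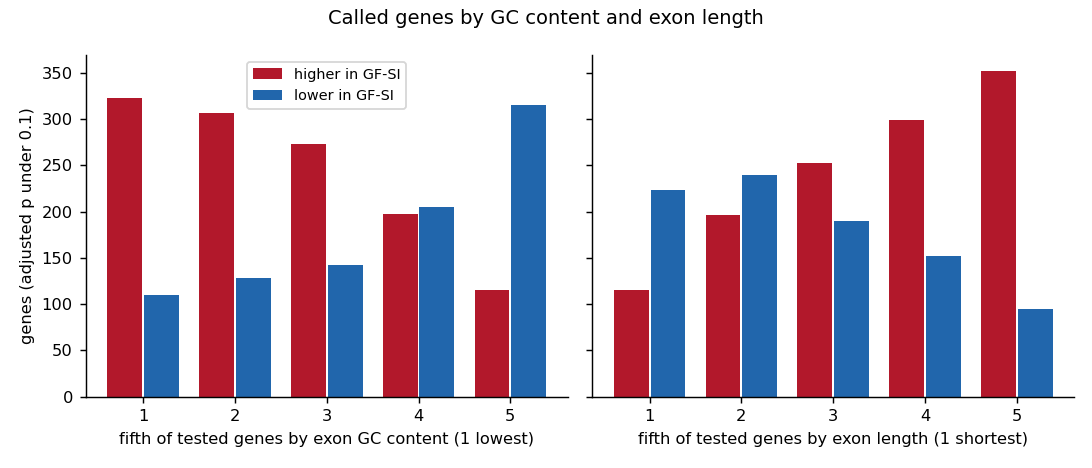
Number of genes called higher (red) and lower (blue) in GF-SI (vertical axis) in quintiles of the tested genes by exon GC content (left) and by exon length (right). Falls outnumber rises among GC-rich and short genes, with 315 falls and 115 rises in the quintile richest in GC and 223 falls and 115 rises in the shortest quintile, and rises outnumber falls at the other ends.

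Direction also went with base composition. In the quintile of genes lowest in GC 323 of 3067 rose and 110 fell, and in the highest 115 of 3066 rose and 315 fell, with medians of 0.02 and −0.09. The shortest quintile had 115 rises and 223 falls among 3068 genes and the longest 352 and 95 among 3066. The lists above were set beside shares over all genes, not beside genes of like GC content or length. Median GC content was 43.6% in the hnRNP list and 42.8% in the list of SR proteins and Tra2. After the correction described next, 13 and 6 of their members rose. When each library was corrected for GC content and exon length, 2134 genes were called, 1458 up and 676 down, so that rises made up 68.3% of the calls in place of 57.3%, and 1685 of the 2121 calls were kept.

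Markers of other cell types were counted in the same way, beside the 13.7% called over all genes. An unadjusted p under 0.05 by edgeR was found for 3711 of all 15443 genes. Of 12 microglial markers 1 fell, P2ry12 (−0.33, lost in 10 of 22 alternatives), of 12 astrocytic markers 1 rose (Gjb6), and of 12 oligodendrocytic markers 0 were called by edgeR, with 0 at an unadjusted p under 0.05, while their sum ranged from 1019 to 6239 CPM among GF-SI mice and from 2077 to 3047 CPM in naïve pools. Of 9 markers of oligodendrocyte precursors 1 rose, 1 fell and 7 were not called (median −0.07). Gpr17, a receptor of cells about to differentiate, rose by 0.54 and Cspg4 fell by 0.48 on the log2 scale. Of 13 markers of vessels 3 rose, such as the VEGF receptor gene Flt1 (0.52), and 1 fell, with 1 rise and 0 falls without GF-P2 and likewise without GF-P3. Among 11 markers of the striatum 3 were called lower, Slc5a7, Adora2a and Gpr6. Adora2a held 14.7, 0.45, 1.37 and 0.624 CPM in the naïve libraries and 0.327 to 4.25 CPM in GF-SI. Without GF-P1, Adora2a stood at 0.49, Slc5a7 at 0.33 and Gpr6 at −0.67, and none passed. The 9 markers of choroid plexus and ependyma had a median of 1.42 and 0 calls by edgeR, with 4 at an unadjusted p under 0.05, while 1 was called by DESeq2, 1 by edgeR without GF-S1 and 3 by edgeR in 1 fit over 4 groups, all higher in GF-SI. Ttr, the thyroxine carrier that this tissue secretes, was measured at 18, 14.8, 17.6 and 17.5 CPM in the 4 naïve libraries and 8.91 to 927 CPM (median 37.9) in GF-SI mice, and its high values were those of GF-S8 (927 CPM) and GF-S12 (735 CPM). The part of tissue composition in the results above was not tested. Leaving out GF-P1 and GF-S8 together kept GF-S12 and gave 752 rises among 15473 genes. In this setting 6 immediate early factors, 12 effectors, 4 ERK phosphatases and feedback inhibitors, 20 cytosolic and mitochondrial chaperones and 18 unfolded protein response genes rose. So did 4 SR and Tra2 genes, 6 hnRNP genes, 14 core spliceosome genes, 4 glucocorticoid-induced genes and 3 translation factors.

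Some genes fell into separate levels among single GF-SI mice, and the following were chosen for this after their values were seen. Tpm3-rs7, a tropomyosin-related gene, stood at 1.24 to 1.96 CPM in 4 mice, at 23.1 to 31.4 CPM in 6 and at 59.1 and 59.7 CPM in 2, with 26.7 to 32.3 CPM in the naïve pools. The lincRNA Gm7292 stood at 75.1 to 93.1 CPM in 3 mice and at 0.306 to 1.49 CPM in 9, with 38.7 to 79.7 CPM in the pools. Bcas1, a gene of myelinating cells, stood at 0.612 CPM in GF-S8 and at 22.2 to 177 CPM in the 11 other mice. Trh, the precursor of thyrotropin-releasing hormone, ranged from 0.0524 to 29.8 CPM.

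**Figure D4:**
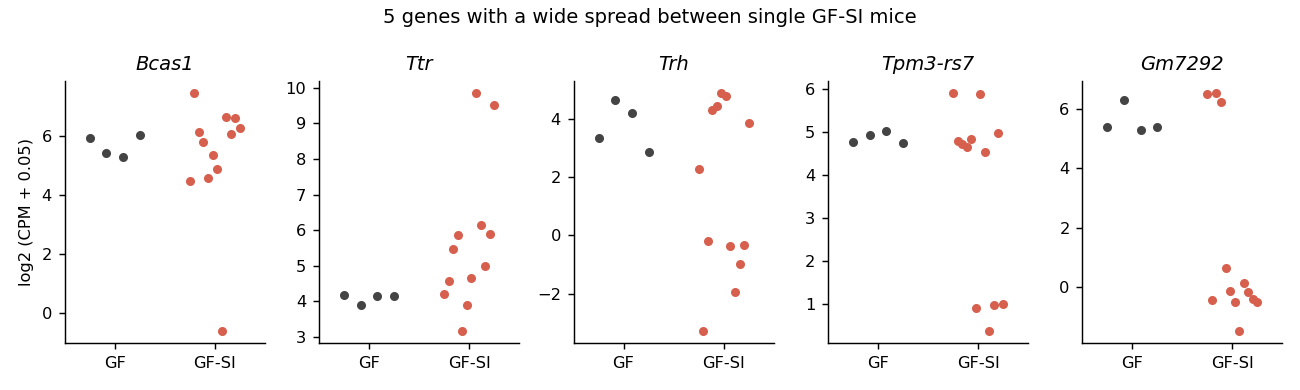
Log2 of CPM plus 0.05 (vertical axes, each with its own range) of 5 genes in the 4 naïve GF pools and 12 single GF-SI mice (horizontal axes), 1 point per library. Tpm3-rs7 and Gm7292 fall into separate levels among single mice, Bcas1 is near 0 CPM in 1 mouse, and Ttr is high in 2.

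Whether these responses differ from those of CON mice was tested in one fit over 28 libraries. Of 1216 genes that rose in GF mice, 865 (71.1%) had a positive log2 change in CON mice too, 235 were called up there and 2 down, and the median change was 0.10 in CON next to 0.35 in GF mice. Of 905 that fell, 603 (66.6%) were negative in CON mice, 55 were called down and 3 up, with medians of −0.07 and −0.43. The genes were chosen on the GF libraries, so that the medians do not compare the sizes of the responses. The shares of all genes that were positive, negative or called in CON mice were not counted. These counts therefore do not measure how far the responses are shared. The difference between the responses was called for 15 of 15841 genes (0.0947%), 7 with a higher and 8 with a lower response in GF mice, while 2343 had an unadjusted p under 0.05. Among the members of the lists above, the difference was called for 1 gene, the channel gene Kcnj16, and for 0 members of the activity-induced, chaperone and splicing lists. For Nr4a3 the log2 change was 1.59 in GF and 0.96 in CON mice (adjusted p of the difference = 0.142 by edgeR), and for Fosb 1.53 and 2.58 (adjusted p = 0.149). The hnRNP list had a median of 0.26 in GF and −0.12 in CON mice, the chaperones 0.43 and 0.18, and the immediate early factors 0.50 and 0.62, and the difference was called for 0 of their members by edgeR. Cirbp changed by −0.80 in GF and −0.26 in CON mice in this fit (adjusted p of the difference = 0.213 by edgeR).

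**Figure D5:**
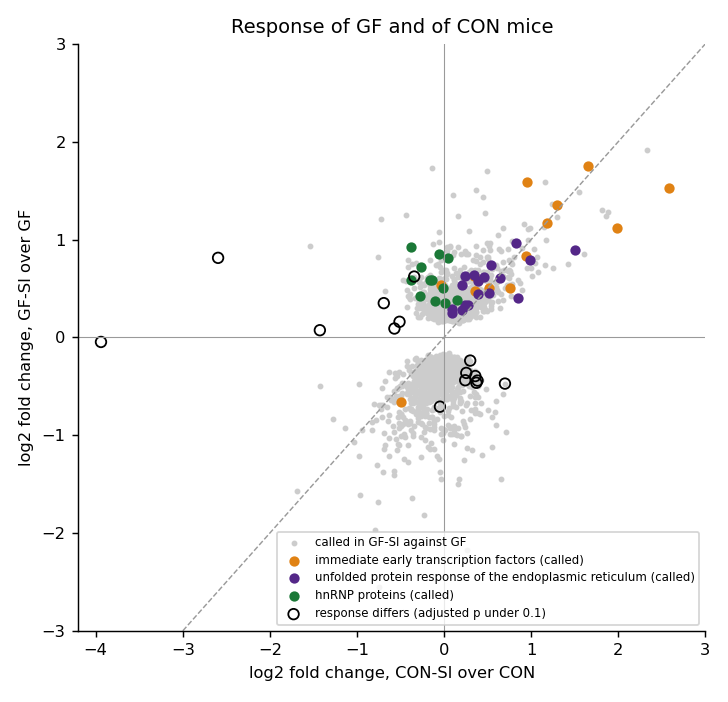
Log2 fold change of GF-SI over GF (vertical axis) against that of CON-SI over CON (horizontal axis) for the 2121 genes called in GF mice (grey), with called members of 3 lists in colour and the 15 genes whose response differed circled in black. The dashed line marks equal responses, and called hnRNP genes lie above 0 on the vertical axis and between −0.38 and 0.15 on the horizontal axis.

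B3gat3, a glucuronosyltransferase of proteoglycan synthesis, fell by 0.24 on the log2 scale in GF mice and rose by 0.30 in CON mice, a difference of −0.54 (adjusted p = 0.0315 by edgeR). Fam13c rose by 0.62 in GF mice, at 35.7, 34.9, 31.9 and 33.9 CPM in the 4 naïve libraries and 41.9 to 62.7 CPM (median 51.9) in GF-SI mice, against −0.34 in CON mice (difference 0.96, adjusted p = 0.0315). Fbxl4 fell in GF mice and stood at −0.05 in CON mice (difference −0.66, adjusted p = 0.0944). The count of 15 rested on single libraries: it was 0 without CON-P1, or without CON-P1 and CON-P3, in which the ribosomal RNA gene model Gm42418 took 32.3% and 18.5% of the counts, and 393 by DESeq2. It was 269 without GF-S1, 273 without CON-P4, 63 without CON-S2, 435 without CON-S7, 26 and 30 without GF-P1 and GF-P4, and 3 to 20 without any one of the other libraries. Without CON-P1 the differences were −0.50 for B3gat3 and 0.83 for Fam13c (adjusted p = 0.118 for both by edgeR).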

How the data were processed

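RNA from left amygdala was sequenced from ribodepleted, stranded libraries. Per the labels, the authors trimmed reads with Trimmomatic 0.32, aligned them to GRCm38.p3 with STAR 2.4.0f1, counted reads per gene without regard to strand with HTSeq 0.6.0 and used DESeq2 1.6.2. CASAVA is also named in the submitters' processing notes. The deposited values are raw counts for 43629 genes, of which 42462 were given a symbol, GC content and exon length from GENCODE vM21. The labels name a pair of external companies for the library kit, whereas the methods place preparation at one of them and sequencing at the other.

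Here, counts were filtered by edgeR's filterByExpr, scaled by TMM and tested by edgeR 4.0.16 (quasi-likelihood, limma 3.58.1, R 4.3.3) with Benjamini-Hochberg adjustment and a threshold of 0.1, over the 16 GF and GF-SI libraries. The difference of responses came from an interaction contrast in one fit with CON and CON-SI. Tables and figures were made with Python 3.11.15, pandas 2.3.3, numpy 2.4.6 and matplotlib 3.10.9. The code of the GF-SI against GF test was tried on simulated counts, with independent libraries and the same dispersion in both groups. That setting does not mimic pools set against single animals or libraries that differ in tissue composition. Libraries of a group differed beyond sampling noise, with a chi-square per degree of freedom of at least 9.65 in GF and 8.31 in GF-SI, so each counted as 1 replicate. Where mice were pooled or housed together, p-values measure the spread between these libraries.

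Alternatives were DESeq2 1.42.0, RLE scaling, no filter, 1 fit over 4 groups, each library left out, a spline correction for GC content and exon length (15331 of the tested genes) and, chosen after seeing the data, GF-P1 and GF-S8 left out together. Promoters came from RefSeq (GRCm38.p6), matched for 11262 of 15441 tested symbols. Genes were named from the 15 largest changes and 10 smallest p in each direction at a mean of at least 1 CPM, up to 6 members of each list with the smallest p, all members of short lists, genes that the study discusses and the 10 smallest p of the response difference. Members and lists were chosen with earlier results of these data known. Since strand was not used, reads of genes that overlap on opposite strands cannot be told apart, which concerns Jun, Crem, Hspa1a, Hspd1, Dnaja1, Pdia3, Pdia6, Hsp90b1, Manf, Ddit3, Banp, Kdm7a, Dio2, Bhlhe40, Nr1d1, Dbp, Rbm3, Kdm6b, Zfp512b, Zfp687, Pias3, Sh2d3c, Lss and Klhdc9. Results for some genes are not reported here.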

Additional observations from a re-analysis of the deposited data

Results flagged for a closer look

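Of 185 measures examined over the 4 naïve libraries, 16 had 1 library apart from the others by Dixon's test, where chance gives about 1 in 20. GF-P3 stood apart for Dusp14 (41.8 CPM), Spry2 (12.9 CPM), Ddit3 (8.98 CPM), Srsf7 (36.4 CPM) and Ranbp2 (425 CPM). GF-P4 stood apart for Dnajb5 (51.5 CPM), Bhlhe40 (60.2 CPM), Xpo1 (132 CPM), Dcx (57.4 CPM), the noncoding RNA D030028A08Rik (6.18 CPM) and the sum of microglial markers (264 CPM). GF-P2 stood apart for Dnajb6 (87.7 CPM) and Ttr (14.8 CPM). GF-P1 stood apart for the striatal genes Adora2a (14.7 CPM) and Slc5a7 (15.3 CPM) and for the sum of striatal markers (422 CPM).

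The response to social interaction differed between GF and CON mice for 15 genes by the interaction contrast of edgeR. Given as the GF minus the CON log2 change, it was higher in GF mice for Gm5619 (3.89), Dsp (3.41), Kcnj16 (1.50), Gm22442 (1.04), Fam13c (0.96), Sgsm2 (0.67) and Glo1 (0.66). It was lower in GF mice for B3gat3 (−0.54), Atp6v0b (−0.62), Fbxl4 (−0.66), Tcte2 (−0.68), Gpaa1 (−0.75), Lrfn4 (−0.83), Dennd6b (−0.84) and Gm10260 (−1.17). Without CON-P1 0 genes were called.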

How the results depend on the processing

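With each library left out in turn, 680 to 2596 genes were called (441 to 1477 up, 239 to 1119 down), the lowest without GF-P3 and the highest without GF-S1. Calls with a log2 change over 0.5 numbered 258 to 777, with 348 without GF-P2 and 258 without GF-P3. Without GF-P1 and GF-S8 together, chosen after seeing the data, 1303 genes were called, 752 up and 551 down. Without the filter on low counts 544 genes were called down. DESeq2 called 2475 genes, RLE scaling 2131 and the fit over 4 groups 2238. The count of genes whose response differed between GF and CON mice was 0 without the libraries rich in Gm42418, 393 by DESeq2 and 0 to 435 with each library left out. Stability was followed for 163 results, the named genes in GF-SI against GF and the response differences of B3gat3, Fam13c and Fbxl4. Of their values under an alternative, 3355 kept their direction and side of the threshold. Another 252 kept the direction and no longer passed, and 3, all of Ttr, newly passed. Direction turned for Adora2a and Slc5a7: with single libraries left out they ranged from −2.42 to 0.49 and from −2.56 to 0.33, the highest without GF-P1, and they stood at 0.55 and 0.39 without GF-P1 and GF-S8 together. The cause of these changes was not tested. No paired analysis was possible because the numbers in the column names count pools and animals and link no libraries.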
